A study of Mus musculus with 6 samples.

Results

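Expression of 40 genes of the unfolded protein response and of the amino acid response driven by ATF4 was followed in cultured dermal fibroblasts of wild type (WT) mice and of mice labelled TSP2KO, which lack thrombospondin-2, a secreted matricellular protein encoded by Thbs2. The members were chosen by gene symbol, and all 40 were found among the 23407 genes of the table. They fall into an ATF4 branch of 21 genes (transcription factors, their feedback regulators, amino acid enzymes and amino acid transporters), 4 genes of stress sensing (the 3 sensors and Xbp1), and a chaperone branch of 15 genes (chaperones, disulfide isomerases and factors of ER-associated degradation). Each genotype had 3 bulk RNA libraries. Both groups were handled alike: the cells came from dorsal skin of 12-week-old animals, were grown for 3 to 5 days in medium with serum and high glucose, and gave RNA at passage 1. The labels name neither the sex, the strain nor the knockout construct, and leave unsaid whether each library stands for its own mouse, so a p-value here speaks of library spread alone, which may be technical.

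When unfolded proteins gather in the endoplasmic reticulum (ER), the sensors PERK (Eif2ak3), IRE1 (Ern1) and ATF6 are set free from the chaperone BiP (Hspa5). IRE1 splices the Xbp1 message, ATF6 is cut in the Golgi, and the XBP1 and ATF6 factors raise chaperone genes; PERK phosphorylates eIF2, which slows translation in general but favours that of ATF4. Other eIF2 kinases, such as GCN2 in amino acid shortage, lead to ATF4 as well, and ATF4 raises genes that make and import amino acids. Fibroblasts secrete much collagen, a protein rich in glycine and proline, and so draw on both branches. The state of splicing, cleavage and phosphorylation cannot be read from values per gene.

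Known promoter elements differed in part between the 2 branches, and the search made no use of the expression values. The members were picked as known ATF4 targets and ER chaperones, so an excess over all genes is a description and not a test. RefSeq windows on GRCm38.p6, from 250 bases before to 50 after a gene's start, matched 36 of the 40 members by symbol. The ER stress element (ERSE), searched as CCAAT and CCACG parted by 9 bases on either strand, lay in 7 of the 13 chaperone branch genes with a window, in 0 of 20 ATF4 branch genes, and in 0.137% of 27025 genes overall. The C/EBP-ATF element (CARE), searched as TGATGNAA on either strand, lay in 7 of the 20 ATF4 branch genes, in 1 of the 13 chaperone branch genes, and in 4.51% of all genes. The element ERSE-II, searched as ATTGG and CCACG parted by 1 base, lay in 1 member, Herpud1, and in 0.0444% of all genes. The XBP1 element TGACGTGG lay in 0 member windows and in 0.714% of all genes. A match describes the letters and is not a shown binding site. Stretches of the chaperone branch follow in the direction of the gene, 5′ to 3′, on GRCm38.p6, with the fixed letters of each match in capitals; CGTGG and ATTGG are CCACG and CCAAT read on the other strand.
Hspa5 (chr2:34772013-34772055, plus strand): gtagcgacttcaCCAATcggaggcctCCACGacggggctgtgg
Hsp90b1 (chr10:86705521-86705668, minus strand): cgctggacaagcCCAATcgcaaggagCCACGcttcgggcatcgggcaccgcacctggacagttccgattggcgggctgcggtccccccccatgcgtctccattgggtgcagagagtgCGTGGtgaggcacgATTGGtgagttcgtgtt
Calr (chr8:84847063-84847105, minus strand): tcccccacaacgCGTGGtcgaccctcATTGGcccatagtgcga
Canx (chr11:50325788-50325830, minus strand): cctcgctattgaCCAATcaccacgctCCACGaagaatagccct
Pdia6 (chr12:17266479-17266521, plus strand): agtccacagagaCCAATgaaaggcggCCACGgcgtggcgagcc
Dnajc3 (chr14:118937815-118937857, plus strand): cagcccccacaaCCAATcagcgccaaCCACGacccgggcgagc
Creld2 (chr15:88819508-88819550, plus strand): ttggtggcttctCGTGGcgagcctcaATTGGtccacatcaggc
Herpud1 (chr8:94386305-94386399, plus strand): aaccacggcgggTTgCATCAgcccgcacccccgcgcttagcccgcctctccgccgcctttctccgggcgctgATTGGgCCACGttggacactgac

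The Hspa5 stretch placed its match 65 bases before the start, and Hsp90b1 held a pair of matches on opposite strands. Herpud1, whose product helps to retrotranslocate misfolded proteins, was the only member with matches of both kinds, a CARE match followed by an ERSE-II match. In the ATF4 branch 7 of 20 genes showed the CARE letters instead, on either strand, with a pair of matches in Slc7a11 and 1 in each of the others shown. Trib3, the remaining gene of the 7, held its match 15 bases after the start.
Atf3 (chr1:191183424-191183455, minus strand): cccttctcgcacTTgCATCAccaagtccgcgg
Chac1 (chr2:119351037-119351068, plus strand): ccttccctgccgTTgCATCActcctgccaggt
Asns (chr6:7693213-7693244, minus strand): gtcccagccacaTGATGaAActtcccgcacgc
Nupr1 (chr7:126625561-126625592, minus strand): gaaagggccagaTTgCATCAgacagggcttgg
Pycr1 (chr11:120643832-120643863, minus strand): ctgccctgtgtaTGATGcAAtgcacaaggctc
Slc7a11 (chr3:50443641-50443691, minus strand): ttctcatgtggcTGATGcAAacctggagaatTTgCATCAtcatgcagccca

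Thbs2 was high in WT 1 and WT 2, at 122061 and 116720 normalised reads, and low in the library labelled WT 3, at 8841, and in TSP2KO 1, TSP2KO 2 and TSP2KO 3, at 5177, 6635 and 4891. For Thbs2 the library labelled WT 3 thus went against its label, though it lay above all TSP2KO libraries. Results that this library moved most are also given without it. Estimated depth lay between 14776502 and 34599855 reads per library. The 8 fibroblast markers summed to between 154252 and 380124 normalised reads in all 6 libraries. Macrophage markers (11 genes) summed to 5819 in WT 1, 4862 in WT 2 and 3076 in the library labelled WT 3. In TSP2KO they summed to between 692 and 786, so by these markers the library labelled WT 3 lay on the side of its label. Keratinocyte markers (10 genes) summed to 35902 in the library labelled WT 3, 12740 in TSP2KO 1 and 11215 in TSP2KO 2, against 411 to 1460 in the other 3 libraries. In bulk RNA, fewer cells of a type and less RNA per cell cannot be told apart.

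No member passed the threshold between the genotypes. Of the 40 genes, all with a mean of at least 10 normalised reads and so all tested, 0 had an adjusted p under 0.05 (limma, Benjamini-Hochberg over 14707 genes), against 0.0612% of all genes tested. At an unadjusted p under 0.05 there was 1 member, Slc7a1, against 9.75% of all genes. The values of the 2 groups did not overlap for 3 members, Slc7a1, Phgdh and Cebpb, against 14.2% of all genes. The median log2 fold change (the log2 difference, TSP2KO minus WT) was 0.03 over the members and -0.01 over all genes, and the median of its size regardless of sign was 0.12 over the members and 0.26 over all genes. Intervals set bounds to what was missed: for 28 of the 40 members the 95% interval lay within a 2-fold change either way, and for the other 12 it reached past 2-fold on at least 1 side. Without the library labelled WT 3, 1 member passed, Slc7a1, against 5.17% of all genes in either direction and 2.43% as higher in TSP2KO, and 5 members had an unadjusted p under 0.05, against 24.5% of all genes. The median size of the log2 fold change was then 0.26 over the members and 0.37 over all genes. Estimates above 0 numbered 26 of the 40 with all 6 libraries and 17 without the library labelled WT 3.

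**Figure D1:**
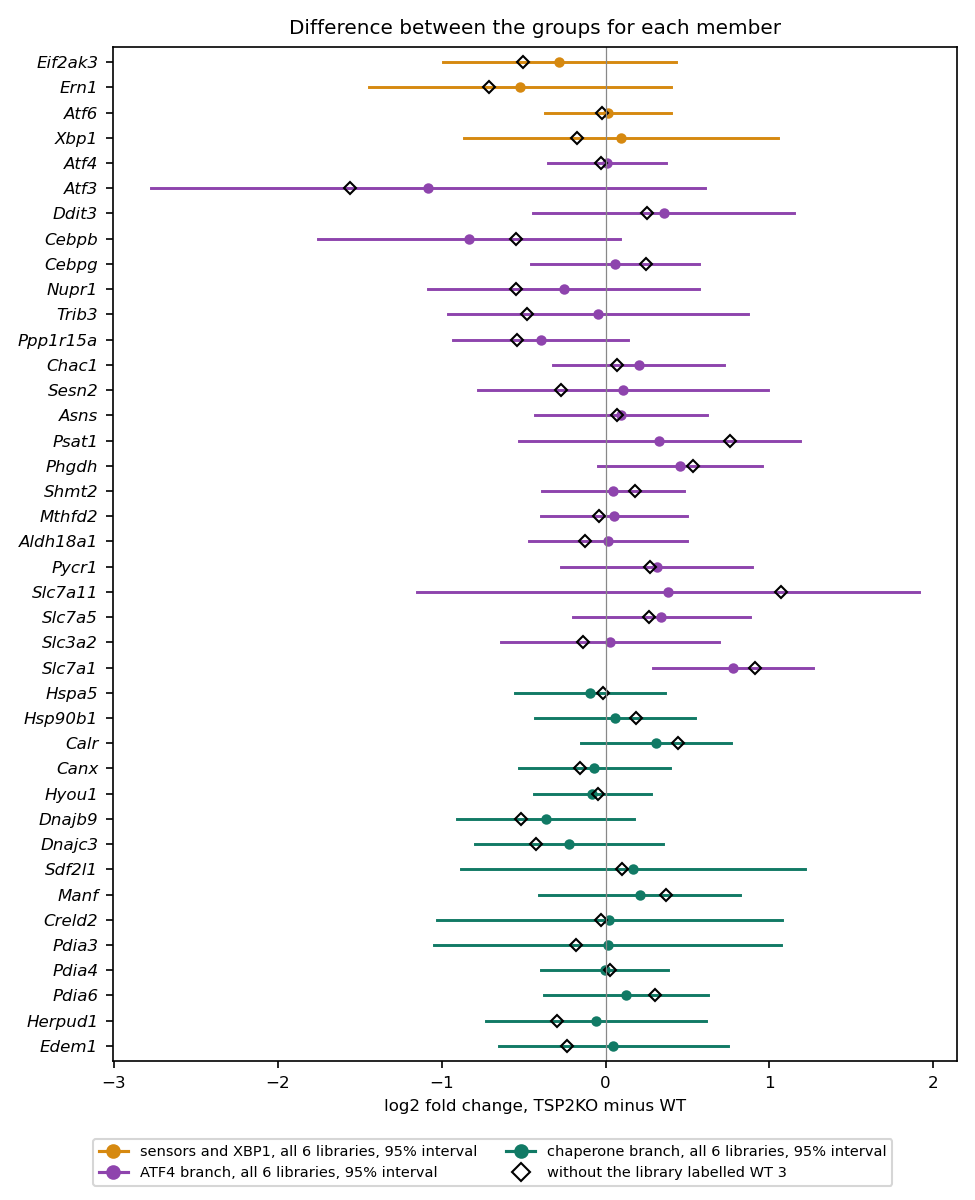
Each row is 1 member, and the horizontal axis is its log2 fold change, TSP2KO minus WT. Filled points with lines are the estimate and its 95% interval from all 6 libraries, coloured by branch, and open diamonds are estimates without the library labelled WT 3. The intervals of all members but Slc7a1 include 0.

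The sensor genes and Xbp1 did not pass the test. Eif2ak3, which encodes PERK, had 105 normalised reads in both WT 1 and WT 2 and 65.4 in the library labelled WT 3, while TSP2KO 1, TSP2KO 2 and TSP2KO 3 had 60.8, 69.9 and 93.4 (log2 difference -0.28, SE 0.30, limma adjusted p = 0.820; -0.51 when the library labelled WT 3 was dropped). WT 1 and WT 2 were the highest and TSP2KO 3 came next, so the groups overlapped. Ern1, which encodes IRE1 alpha, had 111, 126 and 79.5 in WT and 77.6, 112 and 42.7 across TSP2KO (log2 difference -0.52, SE 0.39, adjusted p = 0.736). TSP2KO 3 was the lowest library for Ern1 and TSP2KO 2 lay at the level of WT 1. The Ern1 estimate was -0.15 without TSP2KO 3. Atf6, the sensor that is itself a transcription factor, ranged only from 2270 to 2725 over the 6 libraries (log2 fold change 0.02, SE 0.16). Per kilobase of annotated exons, Atf6 was the most abundant of the 3 sensor messages, at 267 normalised reads averaged over the 6 libraries, against 13.8 for Eif2ak3 and 11.2 for Ern1.

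Xbp1, the target of IRE1 splicing, split the libraries without regard to genotype. WT 1 had 761 normalised reads and TSP2KO 2 had 778, against 400, 314, 417 and 360 in WT 2, the library labelled WT 3, TSP2KO 1 and TSP2KO 3. The lower of the high pair was 1.83 times the highest of the other 4. The group means were thus alike, 492 ± 237 for WT and 518 ± 227 for TSP2KO (SD, n = 3 each; log2 fold change 0.09, SE 0.41, limma adjusted p = 0.966). Leaving out the library labelled WT 3, the estimate was -0.18.

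Among the transcription factors of the ATF4 branch, Atf4 itself was the steadiest. Its message (chromosome 15, 80255184 to 80257541, plus strand, mm10) had 2231, 2125 and 2018 normalised reads across WT and 2142, 2295 and 1986 in TSP2KO, with the groups interleaved. The log2 fold change was 0.01 (SE 0.15, 95% interval -0.35 to 0.37, limma adjusted p = 0.988). Its range over the 6 libraries, 0.21 on the log2 scale, stood at the 0.435 percentile of all tested genes, whose median range was 1.00. ATF4 protein is set largely by translation, which these values do not measure.

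The factors downstream of Atf4 varied more. Atf3, an early stress factor, had 3379, 1705 and 894 normalised reads across WT and 1286, 1495 and 280 in TSP2KO. WT 1 was 12.0-fold above TSP2KO 3, and the other 4 libraries lay between them, so the difference of groups (log2 fold change -1.08, SE 0.72, limma adjusted p = 0.703) was within the spread. The Atf3 estimate was -0.32 without TSP2KO 3 and -0.60 without WT 1. Ddit3, which encodes the proapoptotic factor CHOP, had 551, 1314 and 687 in WT and 856, 956 and 1273 across TSP2KO (log2 difference 0.35, SE 0.34, adjusted p = 0.796). WT 2 and TSP2KO 3 were the highest libraries for Ddit3 and also for Nupr1, a small stress-induced chromatin protein, which had 1659, 2574 and 1130 in WT and 1122, 1241 and 2034 in TSP2KO. This pair was the highest 2 for 5 of the 21 ATF4 branch genes and 7 of the 40 members, against 9.13% of all tested genes. Among 29 other ATF4 and amino acid response genes tested, it was the highest 2 for 13. The cause of this pattern, which crosses the genotypes, was not tested. GENCODE M21 lists Ddit3 under a pair of gene identifiers and 3.97% of its exonic bases lie opposite exons of Mars, so its value is less certain.

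Neither of the C/EBP factors, partners of ATF4 on the CARE element, passed the threshold. Cebpb was low throughout, at 55.1, 31.4 and 77.0 normalised reads across WT and 30.4, 30.8 and 24.0 in TSP2KO. The groups did not overlap, but WT 2 lay only just above TSP2KO 2, and the difference did not pass (log2 fold change -0.83, SE 0.39, limma adjusted p = 0.564). A share of 20.7% of the Cebpb exon lies opposite exons of Tmem189, and no source used here states how strand was handled in counting, so its reads cannot be parted from that gene with certainty. Cebpg, a partner without an activation domain of its own, had 293, 340 and 470 in WT and 379, 357 and 390 in TSP2KO, with all 3 TSP2KO values inside the WT range.

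The feedback and stress regulators showed no passing difference either. Trib3, a pseudokinase that restrains ATF4 and CHOP, had 1528, 2341 and 770 normalised reads across WT and 1138, 1583 and 1388 in TSP2KO, so the WT libraries held both the highest and the lowest value. Sesn2, a leucine sensor that restrains mTORC1, had 784 and 756 in WT 1 and WT 2 and 785 and 752 in TSP2KO 2 and TSP2KO 3, against 350 in the library labelled WT 3 and 439 in TSP2KO 1. Those 2 low libraries cross the genotypes. Chac1, which degrades glutathione, had its lowest values in the same libraries, 482 in the library labelled WT 3 and 550 in TSP2KO 1. Unlike for Sesn2, WT 1 lay close to them at 560, below WT 2 at 725, TSP2KO 3 at 730 and TSP2KO 2 at 741. Ppp1r15a, which encodes GADD34 and restores translation by guiding the dephosphorylation of eIF2, had 2061, 1969 and 1492 in WT and 1570, 1580 and 1070 across TSP2KO (log2 difference -0.40, SE 0.23, limma adjusted p = 0.666).

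Estimates for all 7 amino acid and one-carbon enzymes were above 0 in TSP2KO, from 0.02 to 0.45 on the log2 scale, with a median of 0.10, and 0 of 7 passed. Without the library labelled WT 3 the estimates of 5 were above 0 and those of 2 below. Phgdh, the first enzyme of serine synthesis, had 1412, 2024 and 2012 normalised reads across WT and 2517, 2091 and 2801 in TSP2KO. All TSP2KO values lay above all WT values, by a small margin between TSP2KO 2 and WT 2 (log2 fold change 0.45, SE 0.21, limma adjusted p = 0.562). Psat1, the next enzyme of that path, had 1806 normalised reads in WT 1, 1938 in WT 2 and 3784, 2776 and 3014 across TSP2KO, but 4565 in the library labelled WT 3. The library labelled WT 3 was thus the highest, and WT 1 and WT 2 the lowest. With it the log2 fold change was 0.33 (SE 0.36, adjusted p = 0.825), and without it 0.76 (adjusted p = 0.0680), past the threshold in neither case. The 10 cycling genes, as mean log2 value against WT 1 and WT 2, lay at 2.24 in the library labelled WT 3 and at 1.92, 1.73 and 1.23 in TSP2KO 1, TSP2KO 2 and TSP2KO 3; their part in the Psat1 values was not tested.

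The remaining enzymes varied less across the libraries than Phgdh and Psat1, with log2 ranges from 0.42 for Mthfd2 to 0.88 for Pycr1. Asns, asparagine synthetase and a classic ATF4 target, had 3632, 4230 and 3735 normalised reads across WT and 3807, 3339 and 5513 in TSP2KO, with TSP2KO libraries at both ends. Shmt2, the mitochondrial serine hydroxymethyltransferase, ranged from 2051 to 2919, and Mthfd2, which acts after it in the mitochondrial folate path, from 917 to 1226. Aldh18a1 and Pycr1, which make proline from glutamate, ranged from 2914 to 4191 and from 484 to 893. TSP2KO 3 was the highest library for Phgdh, Asns, Mthfd2 and Pycr1.

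Slc7a1 was the member with the clearest difference. It encodes CAT1, the importer of arginine and lysine (chromosome 5, 148327410 to 148399904, minus strand, mm10). WT 1 and WT 2 had 373 and 396 normalised reads, the library labelled WT 3 had 511, and TSP2KO 1, TSP2KO 2 and TSP2KO 3 had 724, 619 and 851. All TSP2KO values lay above all WT values, and the library labelled WT 3 was the nearest to TSP2KO. Means were 427 ± 73.6 and 731 ± 116 (SD, n = 3 each), a 1.71-fold difference (log2 fold change 0.78, SE 0.21, 95% interval 0.29 to 1.27). It did not pass over all genes (limma unadjusted p = 0.00676, adjusted p = 0.264), and without the library labelled WT 3 it did, narrowly (log2 fold change 0.91, adjusted p = 0.0481).

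The other transporters did not part the groups. Slc7a11, the cystine importer xCT, had 1506 normalised reads in the library labelled WT 3 and 1375 in TSP2KO 1, but 264 in WT 1, 488 in WT 2, 530 in TSP2KO 2 and 587 in TSP2KO 3. The library labelled WT 3 and TSP2KO 1 stood 2.34-fold or more above the rest, so the spread within each genotype exceeded the difference between them (log2 fold change 0.38, SE 0.65, limma adjusted p = 0.899). Slc7a5, the light chain of the large neutral amino acid transporter, had 192, 290 and 202 in WT and 260, 270 and 325 across TSP2KO (log2 difference 0.34, SE 0.23, adjusted p = 0.708). Slc3a2, the heavy chain shared by Slc7a5 and Slc7a11, had 1777 in WT 1 and 1922 in TSP2KO 2, and between 1076 and 1267 in the other 4 libraries. It shared its highest 2 and lowest 2 libraries with Xbp1 and with neither of its partners.

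**Figure D2:**
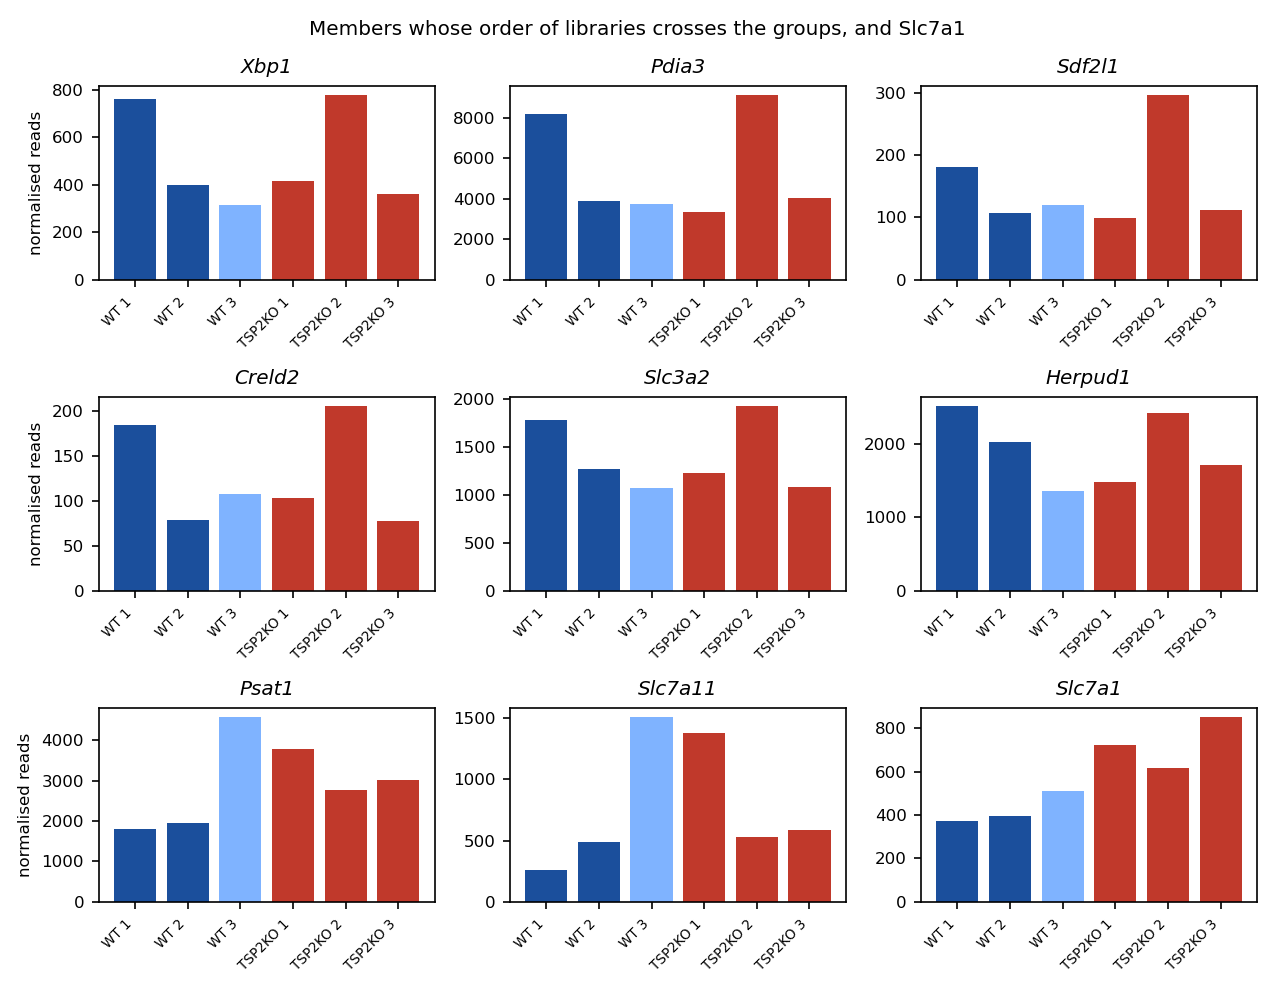
Bars are normalised reads of 9 members in each library, WT in blue with the library labelled WT 3 in pale blue, and TSP2KO in red. Xbp1, Pdia3, Sdf2l1, Creld2, Slc3a2 and Herpud1 were highest in WT 1 and TSP2KO 2, Psat1 and Slc7a11 in the library labelled WT 3 and TSP2KO 1, and Slc7a1 in the 3 TSP2KO libraries.

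The main ER chaperones were abundant and even. Per kilobase of annotated exons, Hspa5 was the most abundant member at 6867 normalised reads averaged over the 6 libraries, followed by Hsp90b1 at 5057, Calr at 4549, Canx at 3677, Pdia4 at 2860 and Pdia6 at 2650. Hspa5, the chaperone BiP that holds the sensors inactive (chromosome 2, 34771970 to 34777547, plus strand, mm10), had 26676, 29906 and 33601 normalised reads across WT and 26905, 29842 and 27301 in TSP2KO. All TSP2KO values lay inside the WT range, with a log2 fold change of -0.10 (SE 0.20, 95% interval -0.55 to 0.36, limma adjusted p = 0.915). Hsp90b1, the ER member of the HSP90 family, ranged from 17257 to 23697, and a stretch of 10.3% of its exonic bases lies opposite a pseudogene. Canx, the membrane lectin calnexin, ranged from 15620 to 20772, and Hyou1, which exchanges the nucleotide of BiP, from 689 to 803.

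Calr, the soluble lectin calreticulin, had the highest estimate of the chaperone branch. It had 10978, 10264 and 14004 normalised reads across WT and 13461, 15568 and 14329 in TSP2KO. WT 1 and WT 2 lay below all TSP2KO libraries and the library labelled WT 3 among them (log2 fold change 0.31, SE 0.20, limma adjusted p = 0.693; 0.44 when that library was dropped, adjusted p = 0.197). Dnajb9, a cochaperone that returns IRE1 to its inactive state, had the lowest estimate of the branch, with 603, 440 and 378 in WT and 367, 409 and 313 across TSP2KO (log2 difference -0.37, SE 0.23, adjusted p = 0.693). Dnajc3, which encodes the cochaperone P58IPK, had 719, 550 and 412 in WT and 430, 544 and 437 across TSP2KO (log2 difference -0.22; -0.43 when the library labelled WT 3 was dropped).

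Several chaperone branch genes shared the highest 2 libraries of Xbp1, but not its lowest 2. Pdia3, the isomerase that works with calnexin and calreticulin, stood at 8185 normalised reads for WT 1 and 9123 for TSP2KO 2, against 3894, 3772, 3373 and 4021 in WT 2, the library labelled WT 3, TSP2KO 1 and TSP2KO 3. The lower of the high pair was 2.04 times the highest of the rest, and the spread within each genotype far exceeded the difference of means (5284 ± 2513 for WT, 5506 ± 3150 for TSP2KO; SD, n = 3 each). Sdf2l1, a lumenal partner of BiP complexes, had 180 in WT 1 and 296 in TSP2KO 2, against 99.4 to 120 in the other 4. Creld2, a lumenal isomerase secreted under stress, had 184 and 205 in those 2 libraries, against 77.5 to 108 in the others. Herpud1 had 2509 and 2411 there and 1361 to 2019 elsewhere. Log2 fold changes between genotypes were 0.01 for Pdia3, 0.17 for Sdf2l1, 0.02 for Creld2 and -0.06 for Herpud1.

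This high pair was counted for all genes after it had been seen. WT 1 and TSP2KO 2 were the highest 2 libraries for 8 of the 40 members and for 11.8% of all tested genes. Beyond Xbp1, Slc3a2, Pdia3, Sdf2l1, Creld2 and Herpud1, the 8 were Atf4 and Sesn2, where the excess was slight. For 4 members, Xbp1, Pdia3, Sdf2l1 and Creld2, the second highest library was at least 1.5 times the third, against 221 of the 14707 tested genes. Among 39 other genes of ER folding and quality control, 11 had these libraries as the highest 2, but 0 by that margin. Among 14 cytosolic heat shock genes, 5 had them as the highest 2, and 2 by that margin. Pdia4 and Pdia6, isomerases of the same family as Pdia3, did not share its highest 2 libraries, with ranges of 6185 to 7210 and 8256 to 12051. Neither did Manf, a secreted ER stress protein, whose highest values were 1253 in TSP2KO 2 and 1029 in the library labelled WT 3, against 875 in WT 1.

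A different pair was low for more members. The library labelled WT 3 and TSP2KO 1 were the lowest 2 libraries for 13 of the 40 members, among them Sesn2, Trib3, Chac1, Aldh18a1, Dnajc3, Pdia3, Herpud1 and Edem1, and for 12.8% of all tested genes. Edem1, which extracts misfolded glycoproteins for degradation, had 561 and 705 normalised reads in these 2 and between 813 and 1104 in the others. The same 2 libraries were the highest for 3 of the 40 members, Psat1, Shmt2 and Slc7a11, and for 13.4% of all tested genes. Keratinocyte markers summed to 35902 and 12740 normalised reads in these 2 libraries and to 11215 in TSP2KO 2. The library labelled WT 3 and TSP2KO 1 were the highest 2 for 8 of 10 cycling genes, against 13.4% of all tested genes. The part of cell makeup and of growth in these values was not tested.

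**Figure D3:**
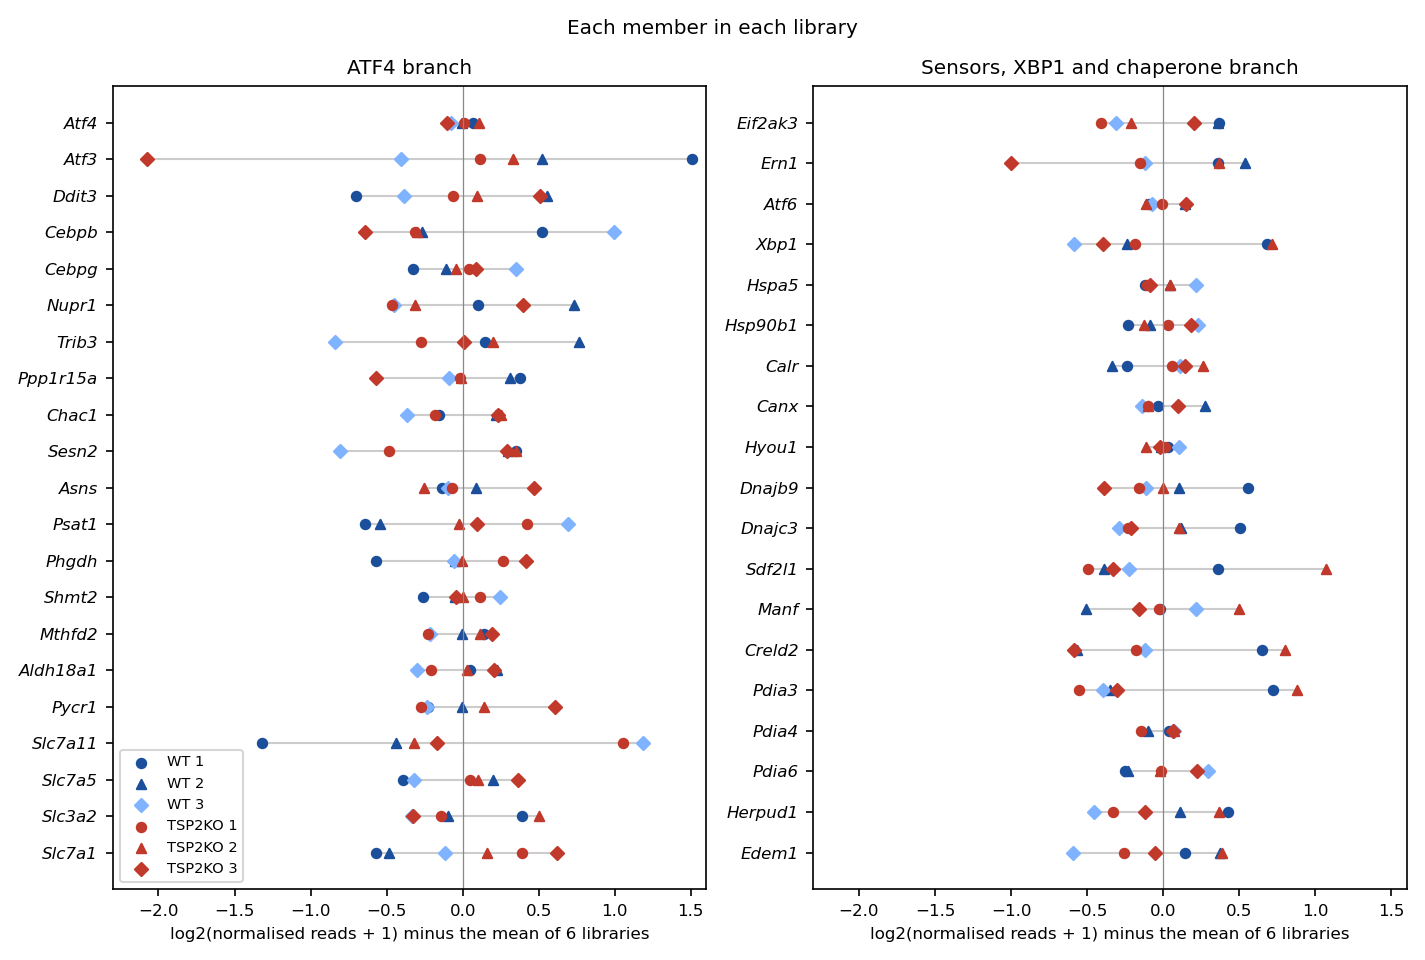
Each row is 1 member, and the horizontal axis is the log2 value in a library minus that gene's mean over the 6 libraries. Blue symbols are WT, with the library labelled WT 3 in pale blue, and red symbols are TSP2KO. Atf4, Atf6, Hyou1 and Pdia4 lie in narrow bands, while Atf3 and Slc7a11 spread widely within both genotypes.

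Set against each other, the branches did not part the genotypes. The ATF4 branch had a median log2 fold change of 0.06, with 16 of 21 estimates above 0, and the chaperone branch one of 0.01, with 8 of 15 above 0, a difference of 0.04 between the medians. Without the library labelled WT 3 the medians were 0.07 and -0.03, with 11 of 21 and 6 of 15 estimates above 0. Taking WT 1 and WT 2 together as 0, the mean log2 value of the ATF4 branch was -0.08 in WT 1, 0.08 in WT 2 and -0.08 in the library labelled WT 3, while TSP2KO 1, TSP2KO 2 and TSP2KO 3 had -0.02, 0.05 and 0.02. For the chaperone branch these values were 0.14, -0.14 and -0.11 in WT and -0.20, 0.24 and -0.14 in TSP2KO. The ATF4 branch mean averaged subgroups that lay apart. In the library labelled WT 3 the feedback and stress regulators lay at -0.82, the transcription factors at -0.21, the enzymes at 0.15 and the transporters at 0.44. In TSP2KO 3 these subgroups lay at -0.30, -0.52, 0.42 and 0.46. The ATF4 branch minus the chaperone branch was below 0 in WT 1, at -0.22, and in TSP2KO 2, at -0.19, and above 0 in the other 4 libraries, from 0.02 to 0.22. With their mean set to 0, WT 1 and WT 2 mirror each other by construction, so their opposite signs are not separate observations. The sensor genes with Xbp1 had a median log2 fold change of -0.13, and -0.34 without the library labelled WT 3, whose own mean of -0.54 lay beside the -0.46 of TSP2KO 1 and the -0.53 of TSP2KO 3.

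**Figure D4:**
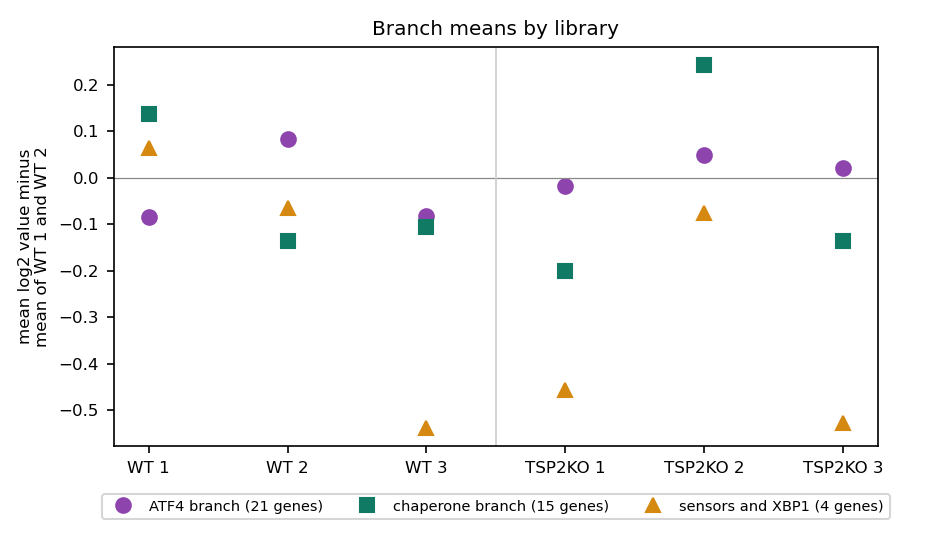
Points are the mean log2 value of the genes of each branch in each library, minus the mean of WT 1 and WT 2. The chaperone branch is highest in WT 1 and TSP2KO 2, at 0.14 and 0.24. The mean of the ATF4 branch stays between -0.08 and 0.08 in all 6 libraries, although its subgroups lie apart.

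Other genes of the 2 pathways gave the same count of 0. Of 29 other ATF4 and amino acid response genes tested, 0 passed in either direction (limma). Against 9.75% of all genes, 2 of the 29 had an unadjusted p under 0.05, both lower in TSP2KO. They were the transporters Slc38a2, which imports neutral amino acids such as glutamine and had 7891, 5964 and 4769 normalised reads across WT and 3776, 4396 and 2648 across TSP2KO (log2 difference -0.78, SE 0.27, adjusted p = 0.395), and Slc6a9, a glycine importer (log2 fold change -0.74, SE 0.25, adjusted p = 0.389). The values of the 2 groups did not overlap for 4 of the 29, against 14.2% of all genes: Slc38a2 and Slc6a9 had lower values in TSP2KO, while Psph, the last enzyme of serine synthesis, and the lipoprotein receptor gene Vldlr had higher ones (log2 differences 0.61 and 0.47). Of 12 genes of eIF2, its kinases and eIF2B, 0 passed and 0 had an unadjusted p under 0.05, against 9.75% of all genes. Eif2ak2, the kinase PKR, which interferon induces, had the lowest estimate of the 12 (log2 fold change -0.74, SE 0.31, limma adjusted p = 0.514). Of 39 other ER folding and quality control genes, 0 passed and 0 had an unadjusted p under 0.05, against the same 9.75%. Of these 39 estimates 26 were below 0, with a median of -0.13. Over all tested genes, 7579 of 14707 were below 0, with a median of -0.01. Of 14 cytosolic heat shock genes 0 passed. The small chaperone Hspb1 alone had an unadjusted p under 0.05, against 9.75% of all genes (log2 fold change 1.27, SE 0.52, limma adjusted p = 0.492). The cargo differed more between libraries than the chaperones did: 15 secreted matrix genes had a median log2 range of 1.66 over the 6 libraries, against 0.80 in the chaperone branch and 1.00 over all genes. Of the 15, 0 passed and 4 had an unadjusted p under 0.05, against 9.75% of all genes. Of these 4, the estimate was above 0 for Col6a2 and below 0 for Dcn, Lum and Postn. The values of the groups did not overlap for 3 of the 15, against 14.2% of all genes. Col6a2 had higher values in TSP2KO (log2 difference 0.55, limma adjusted p = 0.452). Dcn and Lum, which encode small proteoglycans that bind collagen, had lower ones (log2 differences -2.80 and -3.33, limma adjusted p = 0.182 and 0.341). Postn, which encodes periostin, did overlap and had 160352, 144462 and 31931 normalised reads across WT and 26555, 29810 and 41342 in TSP2KO. Without the library labelled WT 3, Postn alone of the 15 passed (log2 difference -2.25, limma adjusted p = 0.0160).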

How the data were processed

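Bulk RNA was sequenced in 6 libraries, 3 WT and 3 TSP2KO, grouped by their titles. The deposited values are a signal per gene, named normalised counts in the authors' table. Per the submitters' processing notes, the authors named mm10, STAR, Partek and DESeq2, with no step assigned to each. Counting options and strand setting: not given in the sources used here. Between 68.6% and 73.9% of values above 0 were whole multiples of a constant step within 0.02 of a read, so whole reads were not recovered and no count test was run. Dividing totals by that step gave the estimated depth. Columns were matched by genotype and replicate number, since library suffixes differ from the labels. Gene coordinates were identical to GENCODE M21 for 96.4% of genes once the stop was shortened by 1 base, and are printed in that form.

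Genes whose mean over the libraries reached 10 were tested on log2(value + 1) with limma 3.58.1 in R 4.3.3, with a mean-variance trend, two-sided, Benjamini-Hochberg adjusted over all 14707 genes, with a threshold of 0.05. Fold changes are on that scale, which understates changes of low genes. Levels per kilobase use the union of annotated exons. The fit was tested on simulated data with 200 changed genes. Members, lists and tests were chosen with earlier results of these data known. All members are named, with Thbs2 and, from each list of other pathway genes, up to 3 genes per direction with the smallest p. Postn and the genes highest in WT 1 and TSP2KO 2, or in WT 2 and TSP2KO 3, were singled out after their values were seen. Protein sequences were not used here. Alternatives were other pseudocounts (0.1 and 10), filters (none, and a mean of 100), equal totals, quantile normalization, no trend, array weights, a replicate block, and leaving out each library.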

Additional observations from a re-analysis of the deposited data

How the results depend on the processing

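With 3 libraries a group and spreads within genotypes as wide as those above, small differences cannot be detected. The library labelled WT 3 also went against its label in Thbs2. The count of members past the threshold was 0 under all alternatives but 2: it was 1, Slc7a1, with array weights (log2 fold change 0.85, limma adjusted p = 0.0171) and without the library labelled WT 3. Array weights gave that library a weight of 0.262 and WT 2 one of 4.15. Over all genes, 9 passed, against 0 with a pseudocount of 0.1, no filter, a mean of at least 100, equal totals, quantile normalization or a replicate block, 14 with a pseudocount of 10, 15 without a trend and 1947 with array weights; with 1 library left out the count lay between 0 and 761, the latter without the library labelled WT 3. The replicate numbers do not pair the libraries: the correlation of deviations from group means was -0.42, -0.25 and -0.39 for libraries of the same number, none of which correlated best with its own number. The replicate block left the members' count at 0. The median of the ATF4 branch was 0.13 with equal totals and -0.06 with array weights, and 0.053 to 0.14 with 1 library left out. That of the chaperone branch ran from -0.13 without TSP2KO 2 to 0.095 without TSP2KO 1. The difference between the branch medians was 0.022 to 0.19 with 1 library left out, but -0.0735 with array weights, so its sign was not stable.

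Estimates that kept their sign also moved with single libraries: Ddit3 was 0.09 without WT 1 and 0.72 without WT 2, and Dnajc3 was -0.03 without WT 1. No member whose estimate changed sign had passed the threshold, and the cause was not tested. Log2 fold changes that changed sign with equal totals were Canx 0.0060, Herpud1 0.019, Pdia4 0.070, Trib3 0.029; with quantile normalization Canx 0.085, Herpud1 0.022, Pdia4 0.068, Trib3 0.046; with array weights Aldh18a1 -0.24, Asns -0.055, Atf6 -0.10, Chac1 -0.13, Ddit3 -0.23, Edem1 -0.35, Mthfd2 -0.072, Pdia4 0.018, Sesn2 -0.38. With 1 library left out, those that changed sign ranged as follows: Aldh18a1 -0.13 to 0.14, Asns -0.11 to 0.25, Atf4 -0.042 to 0.063, Atf6 -0.055 to 0.092, Canx -0.16 to 0.050, Cebpg -0.090 to 0.25, Creld2 -0.37 to 0.35, Edem1 -0.23 to 0.25, Herpud1 -0.30 to 0.14, Hsp90b1 -0.042 to 0.19, Mthfd2 -0.042 to 0.18, Nupr1 -0.55 to 0.047, Pdia3 -0.42 to 0.38, Pdia4 -0.057 to 0.066, Sdf2l1 -0.33 to 0.46, Sesn2 -0.27 to 0.37, Shmt2 -0.077 to 0.18, Slc3a2 -0.22 to 0.23, Slc7a11 -0.19 to 1.07, Trib3 -0.48 to 0.32, Xbp1 -0.24 to 0.46.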
